A study of Mus musculus with 18 samples.

Results

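The overexpression experiment asked what a vector carrying Ptbp1 changes in the ribosome-bound RNA of entorhinal cortex layer II neurons of the mouse. Its members are all 9 libraries labelled PTBP1 OE or control OE, out of 18 libraries in the series, chosen by the treatment label and not by any measured value. The 5 PTBP1 OE mice had received a vector with Ptbp1 and mCherry, and the 4 control OE mice a control vector with mCherry; the authors left out 1 further control mouse for lack of mCherry reads. The RNA came from translating ribosome affinity purification (TRAP), in which tagged ribosomes are pulled down with the mRNA they carry, and the entorhinal cortices of both sides of a mouse were pooled. Each library is thus 1 mouse. The sources used here give no strain, age, sex, vector promoter or driver of the ribosome tag, and the tissue label reads hippocampus where the title and design name the entorhinal cortex.

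Ptbp1 encodes polypyrimidine tract binding protein 1, which binds pyrimidine-rich stretches of pre-mRNA and holds many exons out of the mature message, and in some genes favours an exon instead. Neurons normally carry little of it and use its paralog Ptbp2 instead. In other cells PTBP1 keeps Ptbp2 low by making an exon of Ptbp2 skip, which shifts the reading frame and exposes the mRNA to nonsense-mediated decay, and PTBP1 limits its own amount through an exon of its own pre-mRNA. The experiment therefore puts a splicing repressor of dividing and non-neuronal cells into neurons, and both gene levels and the use of single exons can be read from the deposited counts.

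The PTBP1 OE libraries held 21454440 to 39056655 gene counts and the control OE libraries 18288627 to 26325826, with 19893 to 21456 genes detected. Levels are given as CPM, in which each count is divided by its TMM-adjusted library total. Libraries correlated alike within and between groups (Spearman across genes 0.976 to 0.988 within PTBP1 OE, 0.981 to 0.988 within control OE and 0.974 to 0.988 between them), and the common biological coefficient of variation was 22.3%. The label was checked against markers of excitatory neurons of superficial entorhinal layers. All 14 were measured in both groups, among them Reln, which marks layer II stellate cells (286 and 314 CPM in PTBP1 OE and control OE), the glutamate transporter Slc17a7 (524 and 583) and the calcium-binding protein Calb1 (115 and 93.2). Of 9 hippocampal markers 7 were tested. C1ql2 of the dentate gyrus had 0.617 and 0.875 CPM, Spink8 of pyramidal cells 2.61 and 2.65 CPM and Prox1 5.86 and 3.62 CPM in PTBP1 OE and control OE, while Mpped1 had 256 and 273 CPM. No member of the 7 marker lists (neurons, hippocampus, interneurons, astrocytes, microglia, oligodendrocytes, vessels) passed the test, and the microglial values are given with the interferon genes below. In bulk RNA such as this, fewer cells of a type and less RNA per cell cannot be told apart.

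Ptbp1 had 136, 143, 158, 129 and 118 CPM in the PTBP1 OE libraries, against 17.2, 13.5, 9.96 and 12.3 CPM in the control OE libraries. The groups did not overlap, and the log2(CPM + 0.5) difference was 3.34 (SE 0.172, exact two-sided permutation p = 0.0159, the smallest that 5 against 4 libraries allow), or 10.1-fold. The rise lay in the coding exons. Exon bins are the stretches into which a flattened annotation cuts a gene, numbered by genome position, and a read that crosses several bins counts in each. Summed over the 29 coding bins outside the alternative exon (1948 bases), Ptbp1 had 335, 339, 396, 314 and 297 CPM in PTBP1 OE against 34.7, 20.5, 15.9 and 22.9 CPM in control OE, a log2 difference of 3.86 (SE 0.240, exact permutation p = 0.0159). The 3′ UTR (bins 46 to 49, 1347 bases) had 3.22, 2.17, 1.47, 2.12 and 1.59 CPM in PTBP1 OE against 3.15, 3.07, 2.14 and 1.77 CPM in control OE, a difference of -0.22 (SE 0.233, exact permutation p = 0.365). Per kilobase this is a mean of 173 CPM in PTBP1 OE against 12.1 CPM in control OE for the coding exons, and of 1.57 CPM in PTBP1 OE against 1.88 CPM in control OE for the 3′ UTR.

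The alternative exon of 78 bases (bins 33 and 34, chr10:79860117-79860194, plus strand, mm10) did not rise with the rest of the coding sequence. This exon encodes part of the linker between the second and the third RNA recognition motif, and isoforms with and without it differ in how strongly they repress some exons. It is printed here from GENCODE M21 because it separates the isoforms, with bin 34 in capitals and the 9 bases of bin 33 in lower case.
Ptbp1 78-base exon: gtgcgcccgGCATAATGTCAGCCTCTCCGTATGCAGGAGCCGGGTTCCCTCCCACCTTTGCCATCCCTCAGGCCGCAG
It had 2.32, 1.05, 0.402, 1.66 and 0.672 CPM in PTBP1 OE libraries and 0.726, 0.520, 1.30 and 1.30 CPM in control OE libraries. The groups overlapped, and the log2 difference was 0.16 (SE 0.360, exact permutation p = 0.698); it turned to -0.05 without PTBP1 OE replicate 1 and to -0.00121 without control OE replicate 2. Usage, the share of all bin counts of a gene that fall in 1 bin, in percent, was 0.229% ± 0.156 for bin 34 in PTBP1 OE and 2.75% ± 1.44 in control OE (SD, n = 5 and 4), with a log2 relative usage (the bin's change compared with the gene's other bins) of -3.43 and an adjusted p of 1e-06 in edgeR's diffSpliceDGE. The rise of Ptbp1 was thus measured in the other coding exons, and no difference in the level of the 78-base exon or the annotated 3′ UTR was detectable.

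**Figure D1:**
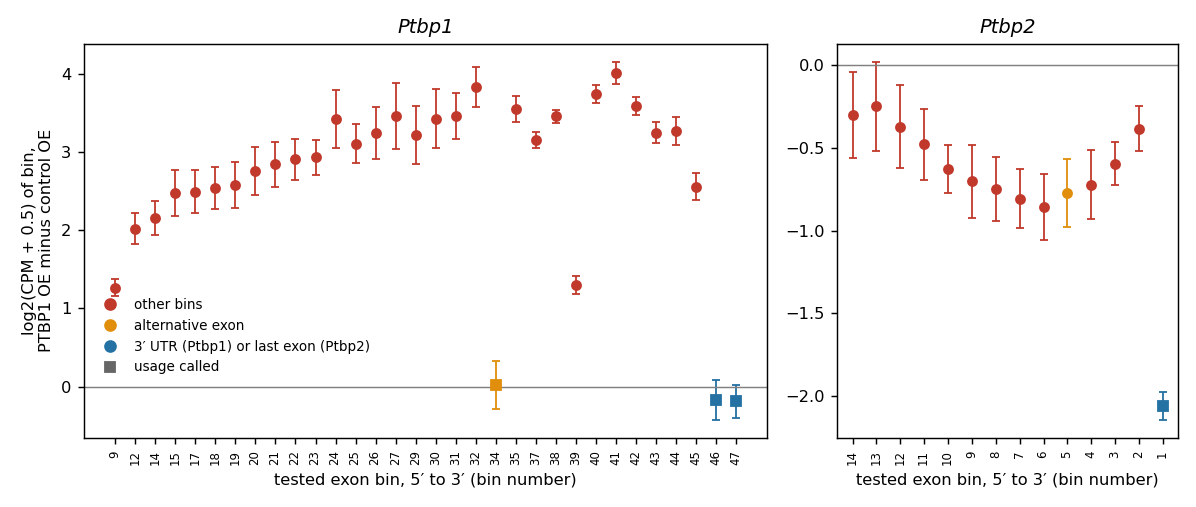
Level difference of every tested exon bin of Ptbp1 (left) and Ptbp2 (right), in transcript order from 5′ to 3′. Each point is the mean log2(CPM + 0.5) of the 5 PTBP1 OE libraries minus that of the 4 control OE libraries, with its SE; squares mark bins whose usage passed the test. In Ptbp1 the alternative exon and the 3′ UTR lie near 0 while the coding bins lie above it, and in Ptbp2 all 14 bins lie below 0 with the last exon at -2.06.

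Ptbp2 fell. It had 41.0, 55.1, 41.5, 46.8 and 53.1 CPM in PTBP1 OE libraries, against 113, 110, 107 and 108 CPM in control OE libraries, with no overlap (log2 fold change -1.20, SE 0.10, adjusted p = 7.81e-05, edgeR). The fall was uneven along the transcript. The last exon (bin 1, 1719 bases, chr3:119718742-119720460, minus strand), which holds the end of the coding sequence and the 3′ UTR, had 9.39, 8.69, 10.7, 9.26 and 9.35 CPM in PTBP1 OE against 38.7, 41.7, 37.5 and 46.8 CPM in control OE. That is a log2 level difference of -2.06 (SE 0.0837, exact permutation p = 0.0159), while the 12 other coding bins outside the 34-base exon (1611 bases) together differed by -0.60 (SE 0.163, exact permutation p = 0.0159). From the 5′ end, the level differences were -0.30, -0.25, -0.37 and -0.48 in bins 14 to 11, -0.63 to -0.85 in bins 10 to 6, -0.77 in bin 5, and -0.72, -0.59 and -0.38 in bins 4 to 2, before the last exon. The last exon made up 14.7% ± 3.199 of Ptbp2 bin counts in PTBP1 OE and 32.5% ± 5.21 in control OE (SD, n = 5 and 4), a log2 relative usage of -1.17 (adjusted p = 4.60e-06, diffSpliceDGE), and it was the only Ptbp2 bin of 14 that passed.

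The exon through which PTBP1 is known to act on Ptbp2 is the 34-base exon (bin 5, chr3:119724612-119724645, minus strand), printed here from GENCODE M21 because its skipping shifts the reading frame.
Ptbp2 34-base exon: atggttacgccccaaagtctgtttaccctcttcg
It had 3.18 CPM ± 0.912 in PTBP1 OE and 5.73 CPM ± 1.18 in control OE (SD, n = 5 and 4; log2 level difference -0.77, SE 0.204, exact permutation p = 0.0317). Its share of Ptbp2 bin counts was 4.78% in PTBP1 OE and 4.47% in control OE, a log2 relative usage of 0.12 that did not pass. The level difference missed the threshold without any 1 of 7 libraries (exact permutation p up to 0.0714), and no change of the usage of this exon was detectable. Usage compares the exon with a gene total that includes the last exon, whose share fell. It therefore does not measure the inclusion of this exon alone. In level the exon differed by -0.77, beside -0.60 for the other coding bins. The paralog Ptbp3 had 21.3 ± 3.42 CPM in PTBP1 OE and 19.9 ± 2.19 CPM in control OE (SD, n = 5 and 4) and did not pass.

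Across all genes, 7 of 16480 tested (0.0425%) passed the quasi-likelihood test of edgeR at an adjusted p of 0.05, 6 higher and 1 lower in PTBP1 OE. Besides Ptbp1 and Ptbp2 they were Plppr3, Cd2ap, Pdlim7, Lss and Hdac7. At an unadjusted p under 0.05 there were 788 genes (4.78%), 460 higher (2.79%) and 328 lower (1.99%). DESeq2 called 39 genes, the 7 among them.

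Plppr3, which encodes a neuronal membrane protein of the phospholipid phosphatase family, lies on the other strand from Ptbp1 and its end overlaps Ptbp1 in GENCODE M21; the sources used here do not say whether counting used strand. It had 57.6, 63.0, 64.4, 55.5 and 57.1 CPM in PTBP1 OE against 12.8, 7.72, 6.95 and 12.2 CPM in control OE (log2 fold change 2.58). By exon bin the change sat at the end next to Ptbp1: bins 1 and 2 were higher in level by 3.66 and 3.48 on the log2 scale, and bin 3 (chr10:79864781-79865787), outside the shared stretch, by 0.24 (exact permutation p = 0.587). Those were the 3 tested bins of 31, and in bins 1 and 2 reads of Plppr3 and of Ptbp1 cannot be told apart.

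Cd2ap, an adaptor that links endocytosis to the actin cytoskeleton and a gene linked to Alzheimer's disease risk in people, rose in PTBP1 OE. It had 37.8, 29.5, 33.2, 25.4 and 21.9 CPM in PTBP1 OE libraries against 9.70, 9.38, 6.67 and 10.5 CPM in control OE libraries. Every PTBP1 OE library lay above every control OE library (log2 fold change 1.70, SE 0.18, adjusted p = 0.000953, edgeR). The rise ran along the whole gene: all 15 tested bins were higher in level, by 0.96 to 1.55 on the log2 scale, and none changed in usage.

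Pdlim7, a PDZ and LIM domain protein that binds actin filaments, had 49.3, 49.997, 51.6, 40.4 and 40.2 CPM in PTBP1 OE against 23.2, 23.7, 23.2 and 25.3 CPM in control OE (log2 fold change 0.96, SE 0.11, adjusted p = 0.00190). Of its 16 tested bins 15 were higher in level. The exception was the 17-base exon (bin 20, chr13:55507864-55507880, minus strand), shown here because it alone did not follow the gene.
Pdlim7 bin 20: gtgcagacctctgacaa
It took 1.88, 2.36, 1.64, 1.42 and 1.94% of Pdlim7 bin counts in PTBP1 OE and 4.25, 5.33, 4.67 and 4.67% in control OE. This is a log2 relative usage of -1.30 (adjusted p = 0.0125, diffSpliceDGE), with a level difference of -0.34 (exact permutation p = 0.0635). The usage call was lost without any 1 of 5 libraries, with adjusted p up to 0.194, and its value stayed between -1.31 and -1.22 there.

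Lss, lanosterol synthase of the cholesterol pathway, had 45.6, 42.5, 48.4, 45.7 and 39.9 CPM in PTBP1 OE against 23.6, 24.7, 20.4 and 25.7 CPM in control OE (log2 fold change 0.91, SE 0.11, adjusted p = 0.00190). All 19 of its tested bins were higher in level, by 0.42 to 0.83. Hdac7, a class IIa histone deacetylase, had 5.34, 7.09, 8.18, 5.13 and 5.08 CPM in PTBP1 OE against 2.37, 1.70, 1.56 and 2.14 CPM in control OE (1.66, SE 0.24, adjusted p = 0.0173). It is the lowest in level of the 7 and the only one to lose its call when a library was left out, with an adjusted p of 0.0821 and 0.0696 without PTBP1 OE replicates 2 and 3, and of 0.110, 0.132 and 0.0689 without control OE replicates 2, 3 and 4.

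**Figure D2:**
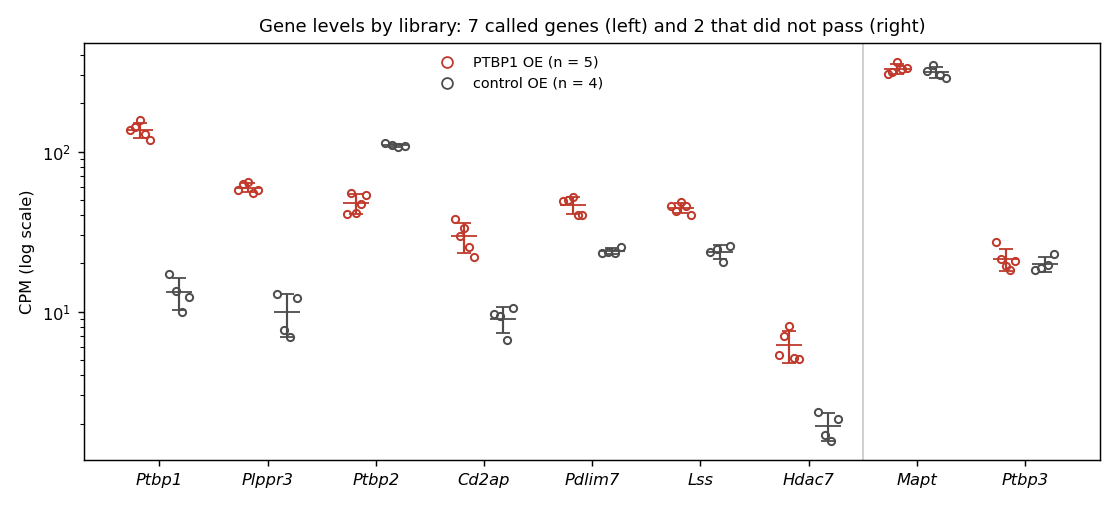
Gene levels in CPM on a log axis, 1 point per library, with the mean and SD of PTBP1 OE (red, left of each pair, n = 5) and control OE (grey, n = 4). The 7 genes that passed the test stand left of the line and show no overlap between groups; Mapt and Ptbp3 to its right did not pass.

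The genes that came next did not pass, and the 20 with the smallest p and a mean log2 CPM of at least 1 are given as values. Of the 20, 14 were higher and 6 lower in PTBP1 OE.

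Among those with higher values, Myo1d, an unconventional myosin, had 9.88 ± 1.22 and 5.10 ± 0.603 CPM in PTBP1 OE and control OE, and Cald1, the actin-binding protein caldesmon, 28.4 ± 10.8 CPM in PTBP1 OE and 9.90 ± 4.37 CPM in control OE. Cald1 was at 47.6 CPM in PTBP1 OE replicate 1 and at 21.7 to 24.9 CPM in the other 4. Anks6, a protein of cilia, had 6.14 ± 1.67 CPM in PTBP1 OE and 2.04 ± 0.774 CPM in control OE, and Ripk2, a kinase of NOD receptor signalling, 6.44 ± 1.77 CPM in PTBP1 OE and 2.40 ± 1.08 CPM in control OE. Rbm28, a nucleolar RNA-binding protein, had 54.6 ± 6.34 CPM in PTBP1 OE and 36.2 ± 4.26 CPM in control OE, and Crtc2, a coactivator of CREB, 14.1 ± 1.89 CPM in PTBP1 OE and 8.07 ± 1.73 CPM in control OE. The dystrobrevin gene Dtna, which also had a called exon bin, had 114 ± 11.4 CPM in PTBP1 OE and 82.5 ± 6.93 CPM in control OE.

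Those with lower values included Kctd6, Ube2a, B930095G15Rik, Hecw2 and Epm2a. Ube2a, a ubiquitin-conjugating enzyme, had 59.6 ± 7.47 CPM in PTBP1 OE and 84.3 ± 6.46 CPM in control OE. Hecw2, a ubiquitin ligase, had 72.8 ± 7.44 CPM in PTBP1 OE and 97.9 ± 6.28 CPM in control OE, and Epm2a, the glycogen phosphatase laforin, 25.8 ± 3.84 CPM in PTBP1 OE and 37.8 ± 2.63 CPM in control OE (SD, n = 5 and 4 throughout). Kctd6 had an adjusted p of 0.13 and Epm2a one of 0.259 (edgeR).

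Exon usage was tested bin by bin. Of 117580 exon bins tested, 40 passed (0.034%), in 30 of 10274 gene identifiers (0.292%); at an unadjusted p under 0.05 there were 1623 bins (1.38%). Setting aside the 4 bins of Ptbp1 and Plppr3, 36 bins of 28 identifiers were left, 27 with higher and 9 with lower usage in PTBP1 OE. A bin could pass the count filter through PTBP1 OE alone. Tpm1 bin 21, for instance, had a mean of 38.2 counts in PTBP1 OE and 4.25 in control OE, and Atp6v1h bin 7 had 31.2 and 4. The split of 27 to 9 is therefore a description and not a test of direction, and no share over all bins stands beside it. Of these 36, 21 could be placed on the genome: 13 higher ones, of which 8 were internal and 5 in a last exon, and 8 lower ones, of which 3 were internal and 5 in a last exon. Among all 87992 tested bins with a place, 76.5% were internal and 16.7% in a last exon. Of the placed bins, 10 were whole internal coding exons, and 4 of these had a length divisible by 3, against 38.1% of the 56887 whole internal coding exons tested.

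Klc1 encodes a light chain of the motor kinesin, and 3 bins at its 3′ end rose. The 131-base exon (bin 27, chr12:111795548-111795678, plus strand) is shown as the first coding exon among them.
Klc1 bin 27: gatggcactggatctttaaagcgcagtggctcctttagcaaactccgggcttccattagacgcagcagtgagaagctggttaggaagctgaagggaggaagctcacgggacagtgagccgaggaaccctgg
It took 0.852, 0.655, 0.642, 0.419 and 0.527% of Klc1 bin counts in PTBP1 OE libraries and 0.0642, 0.0417, 0.0509 and 0.0550% in control OE libraries, with no overlap (log2 relative usage 3.53, SE 0.26, adjusted p = 2.67e-25, diffSpliceDGE). The 67-base exon that follows (bin 29) took 0.633% ± 0.115 in PTBP1 OE and 0.0644% ± 0.0467 in control OE (3.27), and the terminal exon (bin 30) 1.16% ± 0.186 in PTBP1 OE and 0.131% ± 0.0920 in control OE (3.11). The 497-base bin 24 of the other annotated end, which holds 34.5% and 36.4% of the counts, had 281 CPM in PTBP1 OE and 369 CPM in control OE. Klc1 as a gene had 663 ± 42.9 CPM in PTBP1 OE and 838 ± 63.7 CPM in control OE, lower in every PTBP1 OE library, but did not pass (log2 fold change -0.34, adjusted p = 0.300).

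Map4, a microtubule-associated protein of many tissues, shares its identifier with another gene, ENSMUSG00000047011, and its bins could not be placed. Its 5 bins 8 to 12 rose together: bin 11 took 9.87, 11.5, 10.8, 9.43 and 7.91% of the identifier's counts in PTBP1 OE against 1.77, 2.002, 1.24 and 1.69% in control OE (log2 relative usage 2.56, adjusted p = 6.97e-40). Bins 8, 9, 10 and 12 had log2 relative usage of 2.91, 2.80, 2.65 and 2.57. Bin 7 beside them fell to 40.3% ± 3.32 in PTBP1 OE, against 62.0% ± 1.21 in control OE (-0.62, adjusted p = 0.0356), a call that was lost without any 1 of 7 libraries (adjusted p 0.0835 to 0.267), with bins 4 to 6 between -0.24 and 0.02. Map4 as a gene had 521 and 559 CPM and did not pass.

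Snap91 encodes the clathrin assembly protein AP180 of synaptic vesicle endocytosis. Its bin 9 took 0.606, 0.520, 0.699, 0.647 and 0.751% in PTBP1 OE and 0.0802, 0.136, 0.135 and 0.130% in control OE (log2 relative usage 2.40, adjusted p = 5.42e-15), while the 6 bins around it lay between -0.06 and 0.04. Synpo encodes synaptopodin, which organises the spine apparatus of dendrites. Its bin 4, an alternative last exon of 2498 bases, took 5.15, 4.64, 9.24, 4.86 and 4.54% in PTBP1 OE and 0.436, 0.410, 0.0875 and 0.281% in control OE (4.07, adjusted p = 8.03e-16). That is the largest relative usage change among the bins that rose, and replicate 3 lay above the rest.

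Camk2b encodes the beta subunit of the calcium and calmodulin-dependent kinase II of synapses. Its called bin 22 is only 3 bases long, the start of an exon whose other 38 bases form bin 21 (together chr11:5982721-5982761, minus strand). The exon is printed with bin 22 in capitals, since the choice between acceptor sites adds or removes these bases.
Camk2b bins 22 and 21: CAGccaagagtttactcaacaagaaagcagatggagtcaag
Bin 22 took 0.459, 0.484, 0.466, 0.339 and 0.393% in PTBP1 OE and 0.0692, 0.0441, 0.0539 and 0.0333% in control OE (log2 relative usage 3.07, adjusted p = 5.19e-20). Bin 21 had 2.10% and 2.26% (-0.10). The longer form of the exon thus rose, and no change of the exon as a whole was measurable.

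Tpm1 and Pkm have pairs of mutually exclusive exons, and in both the exon that is rare in these neurons rose. In Tpm1, which encodes the actin-binding tropomyosin, bins 21 and 19 (chr9:67032466-67032541 and chr9:67031951-67032026, minus strand) are 76 bases each and identical at 43 of 76 positions (56.6%). In Pkm, which encodes the glycolytic enzyme pyruvate kinase of muscle and other tissues, bins 10 and 9 (chr9:59675568-59675734 and chr9:59675029-59675195, plus strand) are 167 bases each and identical at 103 of 167 positions (61.7%). The Pkm bins were placed by exon order, after the values were seen, since the number of its bins differed from the annotation. Both pairs are printed from GENCODE M21, with the positions that differ within a pair in capitals.
Tpm1 bin 21: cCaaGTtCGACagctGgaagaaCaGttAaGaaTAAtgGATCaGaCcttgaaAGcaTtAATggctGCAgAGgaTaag
Tpm1 bin 19: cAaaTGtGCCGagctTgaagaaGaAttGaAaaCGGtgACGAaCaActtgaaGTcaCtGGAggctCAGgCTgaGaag
Pkm bin 10: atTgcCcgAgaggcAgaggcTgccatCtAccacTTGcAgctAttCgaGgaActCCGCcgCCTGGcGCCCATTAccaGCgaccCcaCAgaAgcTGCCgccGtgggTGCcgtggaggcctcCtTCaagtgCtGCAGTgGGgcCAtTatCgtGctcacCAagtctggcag
Pkm bin 9: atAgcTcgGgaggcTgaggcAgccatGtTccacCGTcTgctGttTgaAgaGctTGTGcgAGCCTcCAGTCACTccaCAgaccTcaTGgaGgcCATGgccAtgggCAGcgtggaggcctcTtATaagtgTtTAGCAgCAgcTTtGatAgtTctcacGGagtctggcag
Tpm1 bin 21 took 0.286, 0.199, 0.270, 0.148 and 0.167% in PTBP1 OE and 0.0637, 0.00596, 0 and 0.0400% in control OE (log2 relative usage 2.88, adjusted p = 8.66e-08). Its partner bin 19 was the main form with 8.64% and 9.35% (-0.12). Pkm bin 10, the exon of the M2 enzyme of dividing cells, took 0.341, 0.332, 0.254, 0.243 and 0.260% in PTBP1 OE and 0.103, 0.0449, 0.0594 and 0.0894% in control OE (1.95, adjusted p = 7.06e-05). Its partner bin 9, the exon of the M1 enzyme, had 14.1% and 15.2% (-0.11). In both genes the groups did not overlap for the exon that rose, and its partner had the larger share in every group.

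Several other internal coding exons rose without their neighbours. They are printed here because each is a whole exon of the reference, from Atp6v1h (bin 7, 54 bases, chr1:5101070-5101123, plus strand), Abi2 (bin 5, 147 bases, chr1:60447260-60447406, plus strand) and Dtnb (bin 47, 90 bases, chr12:3773551-3773640, plus strand), all of a length divisible by 3.
Atp6v1h bin 7: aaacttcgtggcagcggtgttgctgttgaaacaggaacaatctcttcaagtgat
Abi2 bin 5: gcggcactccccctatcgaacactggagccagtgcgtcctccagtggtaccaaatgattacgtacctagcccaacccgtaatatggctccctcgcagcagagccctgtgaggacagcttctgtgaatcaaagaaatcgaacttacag
Dtnb bin 47: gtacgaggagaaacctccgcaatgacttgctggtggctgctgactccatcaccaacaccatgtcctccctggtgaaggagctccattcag
Atp6v1h encodes a subunit of the proton pump of vesicles and lysosomes. Its bin 7 took 0.504, 1.07, 1.09, 0.677 and 0.746% in PTBP1 OE and 0, 0.132, 0.165 and 0.225% in control OE (log2 relative usage 2.58, adjusted p = 4.09e-05), with the 6 bins around it between -0.04 and 0.16. Abi2 encodes a subunit of the WAVE complex, which starts actin branching. Its bin 5 took 4.04, 2.94, 3.87, 3.30 and 3.35% in PTBP1 OE and 2.002, 1.78, 1.19 and 1.67% in control OE (1.07, adjusted p = 7.06e-05). Dtnb bin 47 took 1.55% ± 0.201 in PTBP1 OE and 0.521% ± 0.0839 in control OE (1.57, adjusted p = 0.00699); its call was lost without control OE replicate 2 (0.0853) or 4 (0.107). Erc1, a scaffold of the presynaptic active zone, had a 132-base exon (bin 6) at 0.594% ± 0.215 in PTBP1 OE and 0.137% ± 0.10004 in control OE (2.16, adjusted p = 0.00447), lost without control OE replicate 1 (0.154) or 2 (0.185).

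Dtna encodes the other dystrobrevin. Its bin 22 took 30.8, 30.6, 29.3, 28.8 and 27.3% of Dtna bin counts in PTBP1 OE libraries against 14.9, 15.9, 15.5 and 15.3% in control OE libraries (log2 relative usage 0.94, adjusted p = 2.65e-05, diffSpliceDGE). The level of bin 22 was 39.2 CPM in PTBP1 OE and 16.4 CPM in control OE. Bins 19 to 21 beside it had log2 relative usage of 0.71, 0.76 and 0.75, with overlapping groups, and did not pass. Of the 21 tested Dtna bins, 7 had an unadjusted p under 0.05 (beside 1.38% of all bins) and 1 was called. Kctd17, Mical2, Sept6, Nos1ap, Ccdc136, Pknox2 and Dock3 also held bins with higher usage. Those of Nos1ap, Ccdc136 and Dock3 belong to identifiers that join 2 genes, and the groups of Pknox2 overlapped. The bin named for Nos1ap may belong to Nos1ap or to ENSMUSG00000096603, and which was not tested. In gene level Nos1ap had 13.1 CPM in PTBP1 OE and 16.6 CPM in control OE. ENSMUSG00000096603 had 1.91 CPM in PTBP1 OE and 0.340 CPM in control OE, and neither gene passed. The Dock3 call was lost without control OE replicate 1, 3 or 4 (adjusted p up to 0.346), and the Pknox2 call without PTBP1 OE replicate 1 or control OE replicate 1, 2 or 3 (up to 0.416). The Ccdc136 call was lost without control OE replicate 1 (0.111) and the Nos1ap call without control OE replicate 3 (0.0607). The bins of Dock3 and Nos1ap were tested in only 5 of the 9 fits with a library left out. They kept their calls in 2 and 4 of these fits, respectively. Mical2, an enzyme that disassembles actin filaments, had bin 36 at 0.994% ± 0.299 in PTBP1 OE and 0.260% ± 0.120 in control OE (1.90). Sept6, a septin of the cytoskeleton, had bins 2 and 4, both UTR bins of last exons, at 1.87% and 0.438% (2.09) and at 3.22% and 1.08% (1.59).

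Last exons and 3′ UTRs made up most of the falls. Cdc42, a small GTPase that controls cell polarity, ends in 1 of 2 alternative last exons, and it showed a rise of one beside lower values of the other. Bin 1 (chr4:137319696-137321192, minus strand), the downstream end, took 24.7, 20.2, 27.2, 22.3 and 23.8% in PTBP1 OE and 12.1, 14.5, 13.1 and 13.8% in control OE (log2 relative usage 0.83, adjusted p = 0.000125). Bin 2, the upstream end, took 29.8% and 39.3% (-0.40, not called). In level they differed by 0.59 and -0.62 on the log2 scale (exact permutation p = 0.0159 each).

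Srsf1 encodes a splicing activator of the SR family. Bin 15 in its 3′ UTR (315 bases, chr11:88050096-88050410) fell to 7.54, 5.29, 8.77, 8.07 and 6.61% in PTBP1 OE, against 13.4, 18.4, 15.5 and 14.4% in control OE (log2 relative usage -1.08, adjusted p = 1.45e-05). Ythdc1 encodes a nuclear reader of m6A marks on RNA. Bin 31 at its end (922 bases, chr5:86835733-86836654) fell to 7.24, 10.4, 10.2, 12.4 and 6.79% in PTBP1 OE, against 18.3, 16.6, 19.2 and 19.97% in control OE (-0.98, adjusted p = 0.000125). Abi1, the other Abl interactor, had a 341-base 3′ UTR bin (bin 6) at 2.96% ± 0.470 in PTBP1 OE and 5.83% ± 0.713 in control OE (-0.99), and Etl4 a 469-base one (bin 55) at 2.41% ± 0.280 in PTBP1 OE and 4.10% ± 0.922 in control OE (-0.78). In each of these 4 genes the usage of every PTBP1 OE library lay below that of every control OE library. The Etl4 call was lost without any 1 of 5 libraries, with adjusted p up to 0.788.

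Among internal exons, Tpm3, another tropomyosin gene, had a 79-base exon (bin 37, chr3:90091013-90091091, plus strand) at 0.443, 0.905, 0.528, 1.34 and 0.982% in PTBP1 OE and 1.53, 1.55, 1.76 and 2.14% in control OE (log2 relative usage -1.08, adjusted p = 0.0167). Its call was lost without PTBP1 OE replicate 1 (0.536) or 3 (0.195) and without control OE replicate 3 (0.106) or 4 (0.464). Bin 12 of Psme4, a proteasome activator, was called (-1.03), but its groups overlapped, with 2.64 to 7.46% in PTBP1 OE and 3.32 to 13.5% in control OE. Its call was lost without any 1 of 6 libraries (PTBP1 OE replicates 1, 3, 4 and 5 and control OE replicates 1 and 4), with a value of -0.67 without control OE replicate 1. It was also lost in limma's diffSplice (adjusted p = 0.164) and with a mean of at least 50 counts. Of the 40 called bins, 29 kept their call without each library in turn and 37 were called by limma's diffSplice too, the exceptions being those of Psme4, Nos1ap and Ccdc136.

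**Figure D3:**
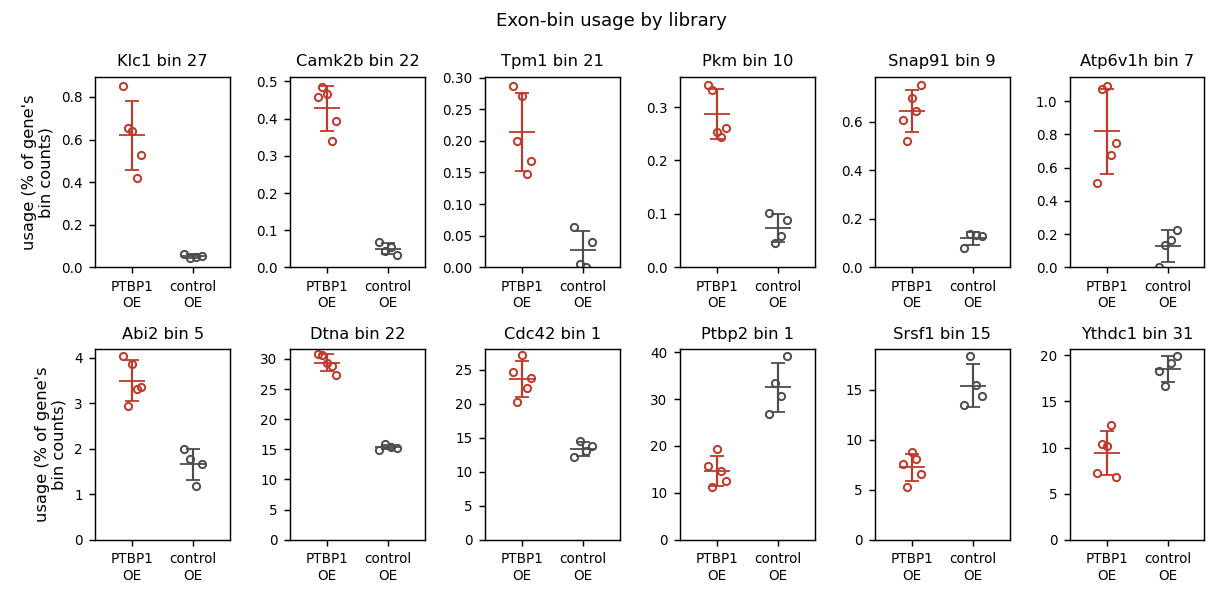
Usage of 12 called exon bins, as percent of all bin counts of the gene, on axes that start at 0, 1 point per library with the mean and SD (PTBP1 OE red, n = 5; control OE grey, n = 4). In every panel the groups do not overlap; the first 9 panels are higher and the last 3 (Ptbp2 bin 1, Srsf1 bin 15, Ythdc1 bin 31) lower in PTBP1 OE.

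The 15 genes with the next smallest bin p did not pass and are given as values, 8 higher and 7 lower. Mapk10 bin 11 took 0.0545% and 0.0106% in PTBP1 OE and control OE, and Dnm1 bin 15, in the gene of the vesicle-pinching GTPase dynamin, 0.159% and 0.0703% (adjusted p = 0.0525 each). Agap3 bin 18, a last exon, took 12.1% ± 0.713 in PTBP1 OE and 7.43% ± 1.499 in control OE (0.0539). Wtap encodes a subunit of the m6A methyltransferase complex, and its last exon (bin 2) took 13.6% ± 2.24 in PTBP1 OE and 23.9% ± 2.35 in control OE (0.0989). Uba3 bin 2, a last exon of the NEDD8-activating enzyme gene, took 8.12% ± 0.984 in PTBP1 OE and 12.99% ± 1.84 in control OE (0.0925). Higher values in PTBP1 OE than in control OE were also seen for Asph bin 15 (1.85% and 0.442%), Inpp4b bin 47 (10.5% and 4.81%), Snx12 bin 1 (4.002% and 1.89%), Msl2 bin 1 (23.6% and 13.9%) and Eps15 bin 19 (0.304% and 0.0794%). Lower values were seen for Tpgs2 bin 1 (0.0869% and 0.377%), Lmo7 bin 60 (2.72% and 5.85%), Runx2 bin 10 (3.32% and 13.97%), Cadm1 bin 26 (0.336% and 1.298%) and Chd6. The Chd6 value rests on 1 library: bin 56 was at 15.8% in control OE replicate 2 and at 1.97 to 3.09% in the other 3, and it turned to 0.33 without that library.

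A list of 50 genes known as targets of PTBP1 splicing was chosen with earlier results of these data known. The same holds for the other gene lists here. The shares of this list are therefore a description and not a test. Of its 46 genes with tested bins, 8 had a called bin (17.4%, beside 0.292% of all identifiers): Camk2b, Dtna, Klc1, Pkm, Ptbp2, Snap91, Tpm1 and Tpm3. In bins this was 10 of 1079 (0.927%, beside 0.034%). The others had none. In gene level, 49 of the 50 were tested; 2 were called (Ptbp2 lower, Cd2ap higher; beside 0.0425% of all genes) and 9, or 18.4%, had an unadjusted p under 0.05 (4 higher, 5 lower; beside 4.78% of all genes), and the median log2 fold change was -0.08, beside -8.02e-05 over all genes.

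Mapt, the gene of tau, did not pass either test. It had 328 ± 22.8 CPM in PTBP1 OE and 313 ± 25.7 CPM in control OE (SD, n = 5 and 4; log2 fold change 0.07, SE 0.08), and none of its 26 tested bins was called. The 93-base exon that adds a repeat to the microtubule-binding domain (bin 26, chr11:104318157-104318249) took 1.44% and 1.37% of Mapt bin counts, a log2 relative usage of 0.06. The 1 bin with an unadjusted p under 0.05 was the 87-base exon of the N-terminal part (bin 11), with 1.38% and 0.933% and an unadjusted p of 0.0403 that did not survive adjustment (adjusted p = 1.00).

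Interferon-induced and antigen presentation genes had no called member but many with a low unadjusted p in edgeR. Of 21 tested, 20 had a higher mean in PTBP1 OE, 12 had an unadjusted p under 0.05, all higher (57.1%, beside 2.79% of all genes in that direction), and none was called; the median log2 fold change was 1.05. Irf7, which amplifies the interferon response, had 4.34, 0.952, 4.23, 1.65 and 2.96 CPM in PTBP1 OE against 0.381, 0.871, 0.890 and 1.28 CPM in control OE. Stat2, a transcription factor that interferon activates, had 26.7, 18.8, 30.9, 22.7 and 19.97 CPM in PTBP1 OE against 13.9, 15.6, 19.9 and 12.1 CPM in control OE. Irf9, its partner on DNA, had 13.5, 4.45, 15.5, 7.86 and 8.88 CPM in PTBP1 OE against 3.09, 5.27, 5.39 and 5.64 CPM in control OE. In all 3 genes replicates 1 and 3 of PTBP1 OE were the highest and replicate 2 lay within the range of the control OE libraries. The groups of every member overlapped.

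The summed level of the 21 genes was 267, 155, 322, 145 and 199 CPM in PTBP1 OE and 95.1, 138, 152 and 146 CPM in control OE. Without PTBP1 OE replicate 3, 6 genes had an unadjusted p under 0.05, and without replicates 1 and 3 together, a choice made after the data were seen, 1 did, with a median of 0.47. Microglia are the immune cells of the brain. Of 8 microglial markers tested, 7 had a higher mean in PTBP1 OE, 3 had an unadjusted p under 0.05, all higher (beside 2.79% of all genes in that direction, and 8236 of all 16480 genes with a log2 fold change above 0). Their median log2 fold change was 0.79, or 0.49 without PTBP1 OE replicate 3 and 0.05 with a mean of at least 50 counts. P2ry12, a receptor of resting microglia, had 1.32 CPM ± 0.616 and 0.381 CPM ± 0.181 with no overlap. The sum of the 8 microglial markers was 11.6, 21.6, 21.9, 15.3 and 18.1 CPM in PTBP1 OE and 12.2, 15.2, 15.1 and 12.8 CPM in control OE. PTBP1 OE replicate 3 had the highest microglial and the highest interferon sum. Replicate 1 had the lowest microglial and the second highest interferon sum. The defining markers Cx3cr1 and Tmem119 were too low to be tested, with 50 and 71 counts in all 5 PTBP1 OE libraries and 15 and 27 in all 4 control OE libraries. The part of microglia in the interferon values was not tested.

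**Figure D4:**
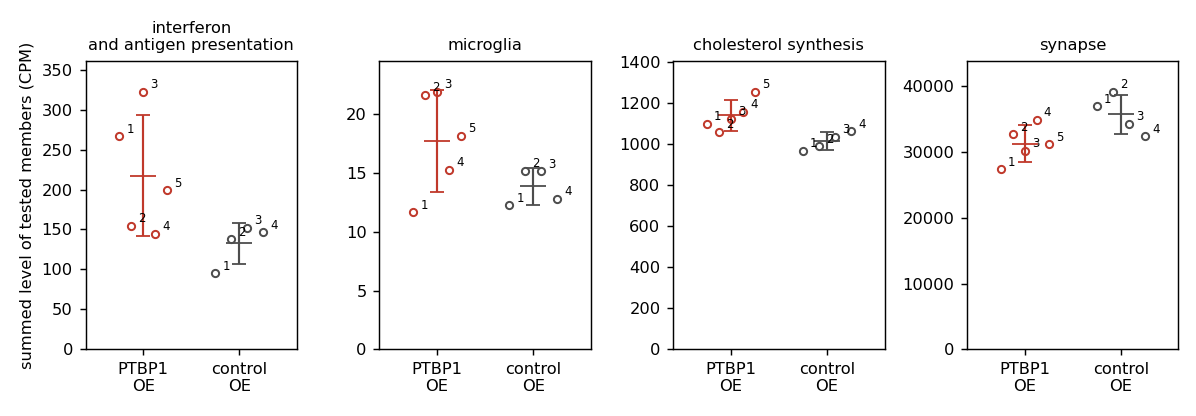
Summed CPM of the tested members of 4 gene lists, 1 numbered point per library (replicate number) with the mean and SD, PTBP1 OE in red (n = 5) and control OE in grey (n = 4). The interferon sum is highest in PTBP1 OE replicates 3 and 1 (322 and 267 CPM), and the microglial sum in replicates 3 and 2 (21.9 and 21.6 CPM).

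In the cholesterol synthesis list 20 of 23 had a higher mean in PTBP1 OE (beside 8236 of all 16480 genes), with a median log2 fold change of 0.17. Lss was called (beside 0.0425% of all genes), and Hsd17b7 alone of the others had an unadjusted p under 0.05 in edgeR. With Lss that is 8.70% of the list, beside 2.79% of all genes in that direction. Hsd17b7 had 22.5 ± 0.370 CPM in PTBP1 OE and 18.4 ± 1.18 CPM in control OE, with no overlap. Fdft1, squalene synthase, had 157 ± 9.51 CPM in PTBP1 OE and 137 ± 17.3 CPM in control OE. In the synapse list 34 of 41 had a lower mean (beside 8244 of all 16480 genes), with a median of -0.11. Snap25, the SNARE protein of vesicle fusion, was the only one with an unadjusted p under 0.05 (log2 fold change -0.31), and its groups overlapped. That is 2.44% of the list, near the 1.99% of all genes in that direction. The summed synaptic level was 27389.5, 32729, 30215, 34894 and 31204 CPM in PTBP1 OE and 36984, 39181, 34357 and 32391 CPM in control OE, which also overlap. In the cholesterol list the sums were 1062 to 1255 CPM in PTBP1 OE and 968 to 1063 CPM in control OE.

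For the lists that follow, the share over all genes with an unadjusted p under 0.05 was 4.78%, with 2.79% higher and 1.99% lower. Of 50 microtubule and tau genes, 5 had an unadjusted p under 0.05, all lower in PTBP1 OE and none called: Klc1, the kinase Cdk5 (76.2 ± 1.59 CPM in PTBP1 OE and 87.7 ± 6.69 CPM in control OE), the tau kinase Mark1 (55.0 ± 2.55 CPM in PTBP1 OE and 63.5 ± 4.91 CPM in control OE), Map7 (56.3 ± 3.05 CPM in PTBP1 OE and 64.6 ± 3.59 CPM in control OE) and the kinesin Kif5a (448 and 522 CPM), the last 2 named after their values were seen. Of 43 genes of actin, LIM proteins and endocytic adaptors 5 had one, all higher: Cd2ap and Pdlim7, both called, Flna, Dnm2 and Itsn1, the last 2 named after their values were seen. Filamin Flna, which crosslinks actin, had 5.14, 4.24, 6.85, 2.85 and 2.92 CPM in PTBP1 OE and 0.847, 1.58, 1.56 and 2.91 CPM in control OE. Of 49 splicing regulators 2 had one, Srsf4 (57.3 and 46.5 CPM) and Srsf1 (77.9 and 95.2 CPM). Of 26 stress genes 3 had one, all higher, among them the p53 target Cdkn1a (74.0 ± 7.37 CPM in PTBP1 OE and 57.7 ± 5.38 CPM in control OE, no overlap). None of 23 immediate early genes and none of 19 proneural genes had one; Neurod1 had 27.3 and 30.9 CPM. Of 28 Alzheimer-associated genes only Cd2ap did, and of 11 histone deacetylases only Hdac7.

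None of 13 interneuron, 11 oligodendrocyte and 10 vessel genes had an unadjusted p under 0.05. Of 13 astrocyte genes S100b (17.7 and 11.6 CPM) and Sox9 (11.5 and 7.57 CPM) did, both higher, with S100b at 27.1 CPM in PTBP1 OE replicate 1 and at 13.6 to 16.2 CPM in the other 4. Rorb did among the superficial neuron markers (45.7 CPM in PTBP1 OE and 33.8 CPM in control OE) and Prox1 among the hippocampal ones. The value of gene Rorb depended on control OE replicate 1, at 51.7 CPM against 24.9 to 29.3 CPM in the other 3: its log2 fold change was 0.44 with all libraries and 0.72 without that one, where it passed (adjusted p = 0.0357, edgeR). The summed level of the astrocyte list was 475 to 896 CPM in PTBP1 OE and 638 to 927 CPM in control OE.

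**Figure D5:**
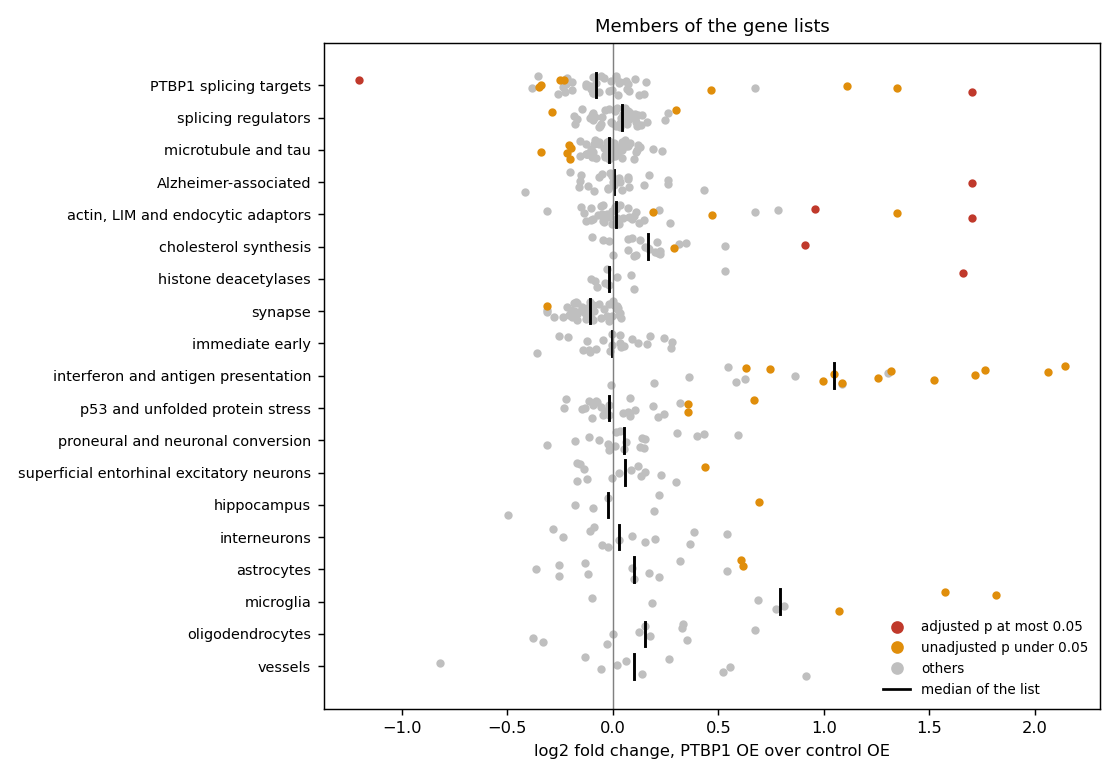
Log2 fold change (PTBP1 OE over control OE) of every tested member of the 19 gene lists, 1 point per gene, with the median of each list as a black bar. Red points passed the test over all genes, orange points had only an unadjusted p under 0.05; the interferon list has its median at 1.05 and the microglial list at 0.79, and the other medians lie between -0.11 and 0.17.

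The same 40 bins were looked up in the silencing experiment of the series, where 4 mice had received an shRNA against Ptbp1 and 5 a scrambled one. Those libraries show overlapping levels of Ptbp1: 0.0992 to 13.01 CPM with the shRNA and 0.352 to 9.02 CPM with the scrambled one. Of the 40 bins, 20 were tested there; 13 differed in the same direction as in overexpression, 4 had an unadjusted p under 0.05 (against 1.98% of all bins tested there) and none was called (against 0.0012%). The 4 were all higher in the shRNA libraries, as in PTBP1 OE: Map4 bins 10 and 12, Dtna bin 22 and Sept6 bin 4. Dtna bin 22 took a mean of 39.6% in shRNA libraries (24.7 to 61.4%) and 20.98% in scrambled libraries (12.98 to 35.5%). The groups thus overlapped for this bin, and they also did for Map4 bin 12 and Sept6 bin 4. For Map4 bin 10 they did not, with 1.06 to 1.85% in shRNA and 0.1202 to 0.588% in scrambled libraries. The 2 experiments share no library.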

How the data were processed

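Ribosome-bound RNA of 9 mice was analysed from the whole-number counts per gene and per exon bin that the authors deposited; these are raw, as their values show. STAR 2.5.3a and HTSeq on mm10 are named per the submitters' processing notes, with no role stated; the sources used here give neither strand nor annotation release. Lines that name no gene or bin were left out of the tests. The reads in no bin were set against the sum of bin counts, ambiguous reads and reads in no bin. They were 45.0% to 48.5% of it in PTBP1 OE and 43.5% to 46.7% in control OE. A read can count in several bins, so these are not exact shares of reads. Genes and bins were filtered with filterByExpr, scaled by TMM and tested over the whole table with edgeR 4.0.16 (quasi-likelihood test for genes, diffSpliceDGE for bins; R 4.3.3), with Benjamini-Hochberg adjustment at 0.05. A single level was compared as log2(CPM + 0.5) with a two-sided exact permutation test on libraries. The added 0.5 shrinks the level differences of bins of few counts, so these are not on the scale of the gene fold changes from edgeR. Bin positions were rebuilt from GENCODE M21 (mm10) and used only where the number of bins of a gene equalled the deposited one, in 31209 of 34765 single-gene identifiers (89.8%). Exon sequences are from GENCODE M21 transcripts. The scripts were tested on simulated data. Alternatives were RLE and upper-quartile scaling, other filters, DESeq2 1.42.0, limma 3.58.1, a surrogate variable (sva 3.50.0) and leaving out each library. The genes and bins and the gene lists were chosen with earlier results of these data known. Named were Ptbp1, Ptbp2, Ptbp3 and Mapt, every called gene, the next 20 genes by p, the called bin with the smallest p of each gene, the next 15 genes by bin p, and the 3 smallest p of each list; other bins of those genes and other list members were chosen after their values were seen. The labels do not say more of the mice than given above, and p-values measure the spread between these mice. 1 of the next 20 genes is not reported here.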

Additional observations from a re-analysis of the deposited data

Results flagged for a closer look

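Of 276 values checked, 21 had 1 library far from the others of its group; by chance about 1 in 20 groups does. By library they were 4 in PTBP1 OE replicate 1, 1 in replicate 2, 3 in replicate 3, and 4, 3 and 6 in control OE replicates 1, 2 and 4.

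Among genes in PTBP1 OE, Cald1 was at 47.6 CPM in replicate 1 and at 21.7 to 24.9 CPM in the others. Itprid2 was at 8.43 CPM there against 5.93 to 6.54 CPM, Rorb at 50.2 against 43.8 to 45.1 CPM and S100b at 27.1 against 13.6 to 16.2 CPM. Olig2 was at 4.79 CPM in replicate 2 and at 0.309 to 0.570 CPM in the others, and Camk2a at 1019.6 CPM in replicate 3 and at 1478 to 1635 CPM in the others. Among genes in control OE, replicate 4 had Rbm28 at 29.8 CPM (others 38.2 to 38.4), Synrg at 64.5 CPM (71.5 to 72.9), Dtna at 72.2 CPM (84.8 to 87.1) and Srsf4 at 52.0 CPM (43.9 to 45.1). Replicate 1 had Irf9 at 3.09 CPM (5.27 to 5.64) and Rorb at 51.7 CPM (24.9 to 29.3), and replicate 2 had Ripk2 at 3.999 CPM (1.67 to 2.06).

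Among bins in PTBP1 OE, replicate 3 had Synpo bin 4 at 9.24% (others 4.54 to 5.15%) and bin 1 of the identifier with Nos1ap at 18.4% (2.12 to 6.53%). Among bins in control OE, replicate 1 had Klc1 bin 29 at 0.134% (0.0358 to 0.0440%) and Snap91 bin 9 at 0.0802% (0.130 to 0.136%). Replicate 2 had bin 5 of the identifier with Dock3 at 0.0648% (0.0128 to 0.0168%) and Chd6 bin 56 at 15.8% (1.97 to 3.09%). Replicate 4 had Pknox2 bin 1 at 0.720% (0.0580 to 0.137%) and Cadm1 bin 26 at 0.596% (1.48 to 1.58%).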

How the results depend on the processing

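DESeq2 called 39 genes, 30 higher and 9 lower. Upper-quartile scaling, no filter on low counts and a mean of at least 50 counts each gave 2 genes lower. Bins with lower usage numbered 8 with a mean of at least 50 counts and 29 in limma's diffSplice. With the former filter 24 of the 40 called bins were called. Bins of lower counts were left untested by it, so most of the others are not lost calls. Among those left untested were Tpm1 bin 21 (mean of 38.2 counts in PTBP1 OE and 4.25 in control OE) and Ptbp1 bin 34 (17.6 and 11). Interferon genes with an unadjusted p under 0.05 numbered 6 in limma-voom, 6 with a surrogate variable and 1 without PTBP1 OE replicates 1 and 3, an alternative chosen after seeing the data. Leaving out each library in turn gave 6 to 9 called genes (5 to 8 higher, 1 to 2 lower), 35 to 42 called bins (25 to 28 higher, 9 to 14 lower) and 6 to 14 interferon genes. The Ptbp1 level difference was then 3.22 to 3.47, that of the Ptbp2 last exon -2.10 to -1.998 and that of the 78-base exon of Ptbp1 -0.051 to 0.36, turned to -0.051 without PTBP1 OE replicate 1 and to -0.00121 without control OE replicate 2. The 34-base exon of Ptbp2 had -0.90 to -0.68, past the threshold in only 2 of the 9 (exact permutation p up to 0.0714). Among the named genes and bins that did not pass, 26 gene values and 28 bin values, counted once for each alternative, did pass. Other values that reversed were Chd6 bin 56 (-1.23 to 0.33, the highest without control OE replicate 2), Acta2 (-0.12 to 1.92, the lowest without PTBP1 OE replicate 1), Olig2 (-0.35 in limma-voom and -0.99 to 0.92 with a library left out, the lowest without PTBP1 OE replicate 2) and Pvalb (-0.022 without PTBP1 OE replicates 1 and 3). The median of the microglial list was 0.05 with a mean of at least 50 counts, which tests fewer genes. Apart from the genes and bins that this filter left untested, the cause of the changes was not tested. No paired analysis was possible because each mouse has its own number and the labels pair no mice across the groups. Depth limits bins of few counts.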
